A study of Mus musculus with 8 samples.

Results

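Ciita and the genes it switches on for class II antigen presentation were followed across 4 states of cultured mouse macrophages. The set was given by gene symbol and holds 10 of the 21883 protein-coding genes in the series: Ciita, H2-Aa, H2-Ab1, H2-Eb1, H2-DMa, H2-DMb1, H2-DMb2, H2-Oa, H2-Ob and Cd74. The cells were bone marrow derived macrophages (BMDM) of C57BL/6 genotype, and each of the 4 groups held 2 libraries, from the mice called A and B. The groups were 25HC then PAM3 (the oxysterol 25-hydroxycholesterol followed by the synthetic lipopeptide PAM3CSK4, which activates Toll-like receptors on macrophages), PAM3 alone, 25HC alone, and untreated. A label for stimulation time, given without a unit, read 18 in the 4 libraries with PAM3 and 0 in the 4 without, so PAM3 and time cannot be told apart. The assay was chromatin immunoprecipitation with an antibody to acetylated histone H4, a mark of accessible, active chromatin, and the data were the authors' broad peaks, 1 list per library.

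Class II molecules display peptides from engulfed material to helper T cells. H2-Aa with H2-Ab1 encodes the chains of I-A, H2-Eb1 encodes the beta chain of I-E, and Cd74 encodes the invariant chain that occupies the groove during assembly. H2-DMa with H2-DMb1 or H2-DMb2 encodes H2-M, which exchanges the invariant chain fragment for peptide, and H2-Oa with H2-Ob encodes H2-O, an inhibitor of H2-M. CIITA does not bind DNA itself. It is recruited by the RFX, CREB and NF-Y factors that sit on the X and Y boxes of class II promoters, and its own gene is induced in macrophages by interferon gamma.

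The RefSeq promoter sequences of the set (GRCm38.p6, 250 bases before to 50 after each start) show the boxes on which these factors sit. Entries existed for 7 of the 10 genes, 8 entries in all. Stretches of 75 bases around the Y box core are given for the 6 genes with the core near the start, 5′ to 3′ on the gene's own strand. Capitals mark the Y box core GATTGG and, where the letters match, the X box core GNAAC, then 3 bases of any kind, then TGA. The stretches of H2-Eb1 (chr17:34305752-34305826), H2-DMb1 (chr17:34153074-34153148), H2-DMb2 (chr17:34145103-34145177), H2-Ob (chr17:34238792-34238866) and H2-Oa (chr17:34092280-34092354) lie on the plus strand, and that of H2-Aa (chr17:34287853-34287927) lies on the minus strand.
H2-Eb1: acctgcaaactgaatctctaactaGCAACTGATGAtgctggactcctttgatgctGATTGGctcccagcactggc
H2-DMb1: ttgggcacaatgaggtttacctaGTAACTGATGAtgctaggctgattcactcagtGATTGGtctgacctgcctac
H2-DMb2: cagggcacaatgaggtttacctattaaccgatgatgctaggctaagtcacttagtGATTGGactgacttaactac
H2-Ob: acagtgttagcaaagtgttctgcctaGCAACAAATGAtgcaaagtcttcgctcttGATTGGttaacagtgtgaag
H2-Aa: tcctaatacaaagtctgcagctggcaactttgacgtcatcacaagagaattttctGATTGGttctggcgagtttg
H2-Oa: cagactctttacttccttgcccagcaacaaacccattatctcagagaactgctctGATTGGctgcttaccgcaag

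All 7 genes, in 7 of their 8 entries, had GATTGG on some strand, against 16.1% of the 32851 promoter entries of the genome. The X box letters were found in 3 of them, H2-Eb1, H2-DMb1 and H2-Ob, against 3.2% of all entries. An X box core 10 to 30 bases before a Y box core on the same strand occurred in 8 entries of the genome (0.024%), and these same 3 genes were among them, with gaps of 20, 21 and 18 bases. The letters searched were chosen after the sequences of these genes had been seen, both strands were read, and a match describes letters only. H2-DMb1 and H2-DMb2 are related neighbours, with 83.3% identity over 258 aligned promoter bases, and how reads that match both were placed is not given in the sources used here.

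Acetylated peaks did not reach all of these promoters. The promoter windows of H2-DMa (the entry starting at 34122832), H2-DMb1 and H2-Oa held called bases in all 8 libraries, and that of H2-Ob in 7. The second H2-DMa entry (starting at 34125518), which has GATTGG where the first does not, held called bases only in PAM3 B and untreated A. The window of H2-Aa was touched in 2 libraries, and those of H2-Eb1 and H2-DMb2 in none. Over the genome, 39.2% to 41.1% of promoter windows held called bases in a library, 31.1% did in all 8 and 54.0% in none.

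The measure used below is called length, the number of bp covered by a library's peaks in a gene's body and 5 kb on either side. The 8 lists held 48446 to 54552 peaks, covering 56.6 Mb (PAM3 A) to 72.4 Mb (PAM3 B), and they give no read counts, so the depth behind each value is unknown. The median −log10 q of the authors' peaks was 5.41 and 5.97 in 25HC then PAM3 libraries, 5.13 and 6.34 in PAM3, 6.38 and 7.41 in 25HC, and 8.65 and 7.41 in untreated. It was thus lower in each library with PAM3 than in any without. Markers of macrophages carried peaks in every library for 9 of 9 genes. So did 5 of 8 conventional dendritic, 3 of 4 plasmacytoid dendritic, 2 of 8 B cell, 3 of 5 T cell and 2 of 6 neutrophil markers. The share over all gene windows is not given here, so these counts do not establish cell identity. The mark on a gene reports on chromatin and not on RNA or protein.

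Averaged over the 8 libraries, H2-DMa had the largest covered share of its window (25.2%), followed by H2-Ob (21.3%), Cd74 (18.0%), H2-Ab1 (12.8%), H2-DMb2 (12.6%), H2-Oa (12.2%), Ciita (10.7%), H2-DMb1 (10.3%), H2-Eb1 (6.5%) and H2-Aa (2.9%). The ranges over the libraries overlapped between all neighbours in this order, as in 18.2% to 31.8% for H2-DMa and 12.4% to 34.0% for H2-Ob, so neighbours are not resolved. The 10 windows held 36 distinct regions (overlapping peaks of any libraries merged), of which 9 were called in all 8 libraries and 7 in only 1. Of the 36 regions, 8 were called only in libraries without PAM3 and 5 only in libraries with it, and 10 lay in the windows of more than 1 gene. Among the 61209 merged regions in the windows of all protein-coding genes, 14.3% were called only without PAM3, 23% only with it and 23.4% in a single library.

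**Figure D1:**
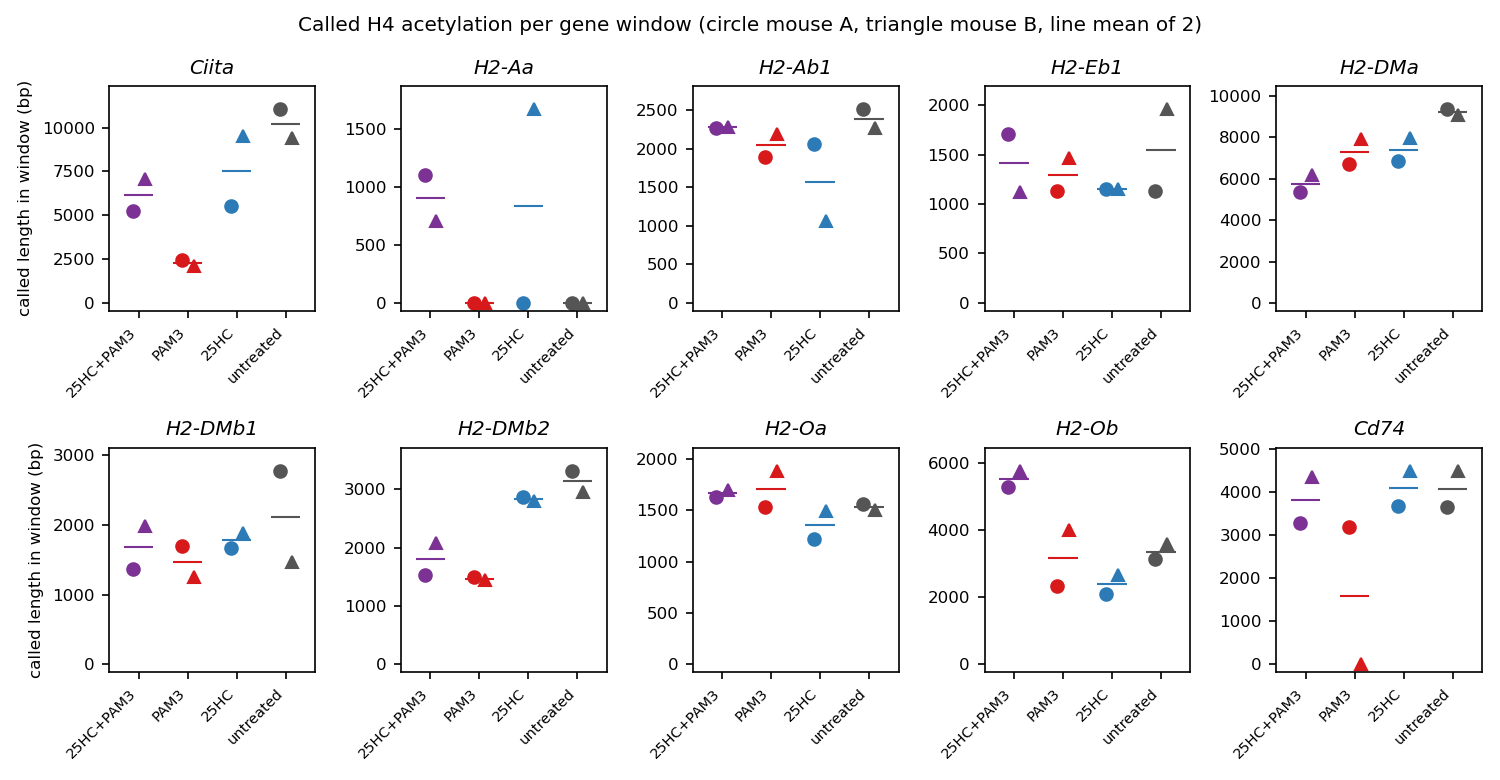
Called length in bp (vertical axis, from 0, a scale of its own per gene) in each library of the 4 groups; circles are mouse A, triangles mouse B, and lines the mean of 2. Ciita is lowest in the PAM3 libraries (2433 and 2097 bp), H2-DMb2 is lower in all 4 libraries with PAM3, and H2-Ob is highest in 25HC then PAM3 (5297 and 5781 bp).

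The master regulator itself had the largest difference among the genes of the set that passed the test. Ciita (gene ID 12265, chr16:10480014-10531064) had 5260 and 7053 bp of called length in 25HC then PAM3 macrophages, 2433 and 2097 bp in PAM3, 5548 and 9493 bp in 25HC, and 11048 and 9411 bp in untreated macrophages (mice A and B in each pair). Both PAM3 libraries lay below all 6 others. How many tested genes show such a separation of 2 libraries from 6 was not counted, here or below. The group means were 6157 ± 1268, 2265 ± 238, 7521 ± 2790 and 10230 ± 1158 bp in the same order (SD, n = 2 each).

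In PAM3 against untreated macrophages Ciita fell by 1.91 on the log2 scale (SE 0.27, limma adjusted p = 0.0284 over 14586 genes tested). That is 3.75-fold lower on the scale used for testing, which adds 500 bp to each called length before the logarithm is taken. Fitted with mice as blocks, the adjusted p was 0.0633. The call was kept without 25HC A, 25HC B or PAM3 A and lost without any one of the other 5 libraries, with adjusted p of 0.0403 to 0.11. Its direction held but the call was lost when each library was reduced to the same covered length (−1.82, adjusted p = 0.101) or the flanks to 1 kb (−3.07, adjusted p = 0.0793). In a mixed culture, fewer cells carrying the mark and less of the mark per cell cannot be told apart.

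After 25HC the same stimulus gave no call at Ciita. The log2 difference of 25HC then PAM3 against 25HC was −0.26 (SE 0.27, limma adjusted p = 0.66), and the groups overlapped. Set against PAM3 alone, 25HC then PAM3 had the longer called length in both mice, by 1.25 on the log2 scale (SE 0.27), which did not pass (adjusted p = 0.108). The difference between the PAM3 response after 25HC and the one without it was 1.65 (SE 0.38, adjusted p = 0.252), so a different response after 25HC was not shown. This last contrast called 0 of 14586 genes, with 1436 at an unadjusted p under 0.05. Over 4 libraries against 4, Ciita fell by 1.08 with PAM3 (SE 0.19, adjusted p = 0.0223, or 0.0467 with mice as blocks), and this average joins unequal values.

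The lower called length in PAM3 came from several regions within Ciita. None of its 9 regions was called in all 8 libraries. A region before the lower-coordinate end (chr16:10474607-10477676) reached past the window's edge. It had 706 and 0 bp in 25HC then PAM3 and 1178 and 2504 bp in PAM3. In 25HC it had 1680 and 1697 bp, and in untreated 2657 and 2607 bp. This region was thus shorter in both 25HC then PAM3 libraries than in any other, and it was the only Ciita region called in PAM3 B. A region 6.6 to 10.1 kb from the lower-coordinate end (chr16:10486570-10490073) had 1233 and 3307 bp in 25HC then PAM3, 0 and 0 bp in PAM3, 1246 and 2790 bp in 25HC, and 2809 and 2190 bp in untreated. It was thus missing in PAM3 alone and called in the other 6 libraries. A cluster of 3 small regions 36.2 to 41.6 kb from that end was at 0 in all 4 libraries with PAM3. The middle region of the cluster (chr16:10517356-10518718) had 1049 and 918 bp in 25HC and 1108 and 1092 bp in untreated libraries. The first of the cluster was called only in untreated A, and the last was at 0 in 25HC A. A region 1.5 to 3.5 kb from the lower-coordinate end (chr16:10481514-10483525) was also at 0 in all 4 libraries with PAM3. It had 0 and 1912 bp in 25HC and 1864 and 1187 bp in untreated.

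One Ciita region was extended instead. The region 15.2 to 18.7 kb from the lower-coordinate end (chr16:10495239-10498744) had 3321 and 3441 bp in 25HC then PAM3, 1255 and 0 bp in PAM3, 1345 and 1340 bp in 25HC, and 1508 and 1681 bp in untreated. The peaks of 25HC then PAM3 ended at 10498744 and 10498732, whereas those of the other groups ended at 10496964 or lower. The authors' enrichment for these peaks was 1.86 and 1.20 in 25HC then PAM3, 1.21 in PAM3 A, 1.39 and 1.85 in 25HC, and 1.79 and 6.47 in untreated. These values of 25HC then PAM3 lay within the range of the other groups or just below it. The similar called length of Ciita in 25HC then PAM3 and in 25HC therefore covered partly different bases.

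**Figure D2:**
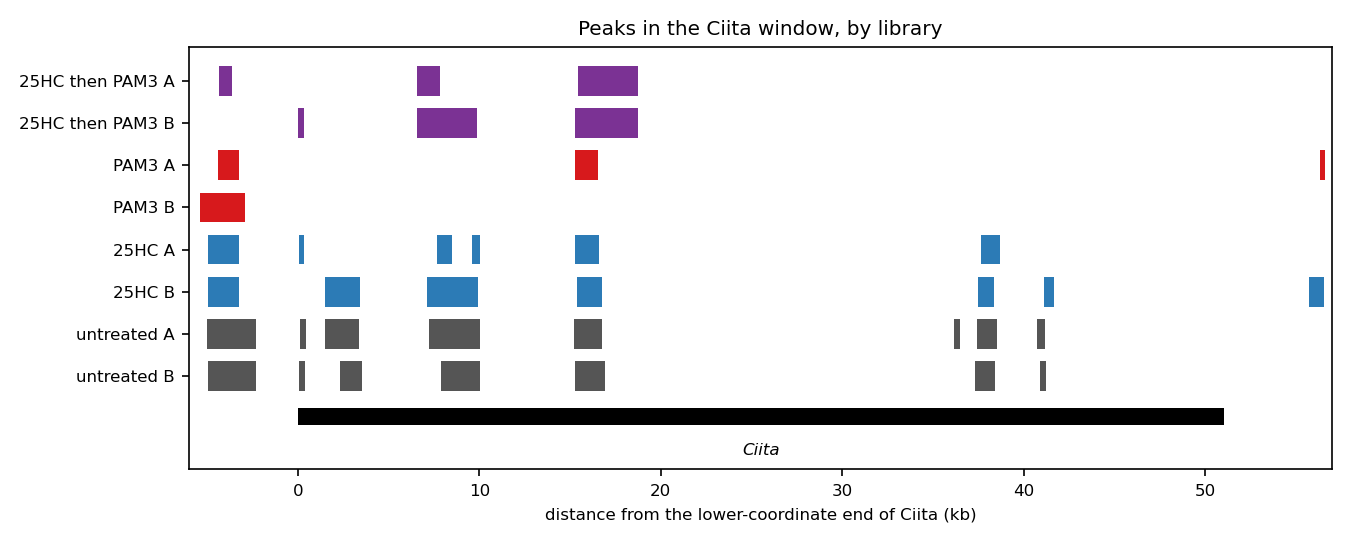
Peaks (coloured blocks) in the Ciita window for each of the 8 libraries (rows), by distance in kb from the lower-coordinate end of the gene, which is drawn as a black bar. The block near 15.2 kb extends to 18.7 kb only in the 25HC then PAM3 libraries, and the blocks between 36.2 and 41.6 kb are absent from the 4 libraries with PAM3.

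Among the H2-M genes, H2-DMb2 had less called length in each library with PAM3 than in any without. H2-DMb2 had 1524 and 2088 bp in 25HC then PAM3, 1489 and 1441 bp in PAM3, 2861 and 2800 bp in 25HC, and 3319 and 2956 bp in untreated macrophages. All 4 libraries with PAM3 lay below all 4 without, a separation in that direction that 9.66% of tested genes showed. H2-DMb2 fell by 0.84 in PAM3 against untreated macrophages on the log2 scale (SE 0.15, limma adjusted p = 0.0424, or 0.085 with mice as blocks), a call kept without PAM3 A and lost without any one of the other 7 libraries (0.0576 to 0.165). In 25HC then PAM3 against 25HC the log2 difference was −0.57 (SE 0.15, adjusted p = 0.0919). Over 4 libraries against 4 it fell by 0.70 (SE 0.10, adjusted p = 0.0144, or 0.033 with mice as blocks), a call kept in 7 of 8 fits that each left out 1 library and lost without 25HC A, at 0.0507.

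A single region carried this change. It spans the lower-coordinate end of H2-DMb2 (chr17:34141977-34144338) and had 841 and 845 bp in 25HC then PAM3, 842 and 922 bp in PAM3, 2173 and 2143 bp in 25HC, and 2233 and 2320 bp in untreated libraries. The peak was called in all 8 libraries and was narrower in the 4 with PAM3, where its outer parts on either side were no longer called. The authors' −log10 q of the narrow peaks ranged over 4.66 to 31.1, and that of the wide peaks over 2.14 to 8.12, so the ranges overlapped. Each is a single value for a whole peak, so it does not compare narrow and wide peaks over the same bases. Keeping only peaks with −log10 q of at least 5 removed 3 of the 4 wide peaks and the narrow peak of PAM3 A. The log2 difference of H2-DMb2 in PAM3 against untreated was then 0.16 (limma adjusted p = 0.972). With lists reduced to the same covered length it was −0.24 (adjusted p = 0.881). The H2-DMb2 start site in the promoter table (34145249) lies outside this region.

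Its partner H2-DMa had 5344 and 6192 bp in 25HC then PAM3, 6708 and 7902 bp in PAM3, 6837 and 7963 bp in 25HC, and 9364 and 9066 bp in untreated macrophages. The untreated libraries were the 2 highest, PAM3 overlapped 25HC, and both 25HC then PAM3 libraries lay below both 25HC libraries. H2-DMa fell by 0.32 with PAM3 over 4 libraries against 4 (SE 0.07, limma adjusted p = 0.0449), but not with mice as blocks (0.0691) or without any 1 of the 8 libraries (0.0723 to 0.131). In PAM3 against untreated its log2 difference was −0.27 (SE 0.10, adjusted p = 0.221), and in 25HC then PAM3 against 25HC −0.36 (SE 0.10, adjusted p = 0.113).

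Much of the H2-DMa window belongs to its neighbours. The window includes the H2-DMb2 region above, and counting only bases in no other gene's window left a log2 difference of 0.05 in PAM3 against untreated. Its largest region (chr17:34119578-34123816) lies over the RefSeq bodies of both H2-DMa and Brd2, a reader of acetylated histones, and had 3355 to 4203 bp in the 8 libraries. Brd2 itself differed by −0.19 with PAM3 (SE 0.09, limma adjusted p = 0.272). H2-DMb1 had 1368 and 1986 bp in 25HC then PAM3, 1695 and 1250 bp in PAM3, 1669 and 1888 bp in 25HC, and 2775 and 1462 bp in untreated. Its groups overlapped, and its smallest adjusted p over the 7 contrasts was 0.568.

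Of the H2-O genes, whose product restrains H2-M, H2-Ob passed a test and H2-Oa did not. H2-Ob had 5297 and 5781 bp in 25HC then PAM3, 2332 and 4000 bp in PAM3, 2104 and 2668 bp in 25HC, and 3154 and 3584 bp in untreated macrophages. The 25HC then PAM3 libraries were higher than the 6 others. In 25HC then PAM3 against 25HC it rose by 1.05 on the log2 scale (SE 0.18, limma adjusted p = 0.0381, or 0.0438 with mice as blocks), a call kept without PAM3 A or PAM3 B and lost without any one of the other 6 libraries (0.0668 to 0.143). Against PAM3 alone the log2 difference was 0.75 (SE 0.18, adjusted p = 0.13), and the PAM3 responses with and without 25HC differed by 1.11 (SE 0.25, adjusted p = 0.252).

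The rise came from bases beyond the H2-Ob gene. A region 1.6 to 6.0 kb past its upper-coordinate end (chr17:34247497-34251913), between H2-Ob and H2-Ab1, had 3975 and 4417 bp in 25HC then PAM3, 0 and 1714 bp in PAM3, 0 and 318 bp in 25HC, and 869 and 1237 bp in untreated. Peaks in 25HC then PAM3 were single and broad, whereas PAM3 B had 2 separate peaks within the same span. The region at the H2-Ob start (chr17:34238884-34240806) kept 1496 to 1888 bp in all 8 libraries. With 1 kb flanks in place of 5 kb the log2 difference was −0.04, so the difference lay in the flank, outside any protein-coding gene body. H2-Oa had 1634 and 1699 bp in 25HC then PAM3, 1530 and 1887 bp in PAM3, 1218 and 1491 bp in 25HC, and 1565 and 1503 bp in untreated, with adjusted p of 0.165 or more in all 7 contrasts.

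**Figure D3:**
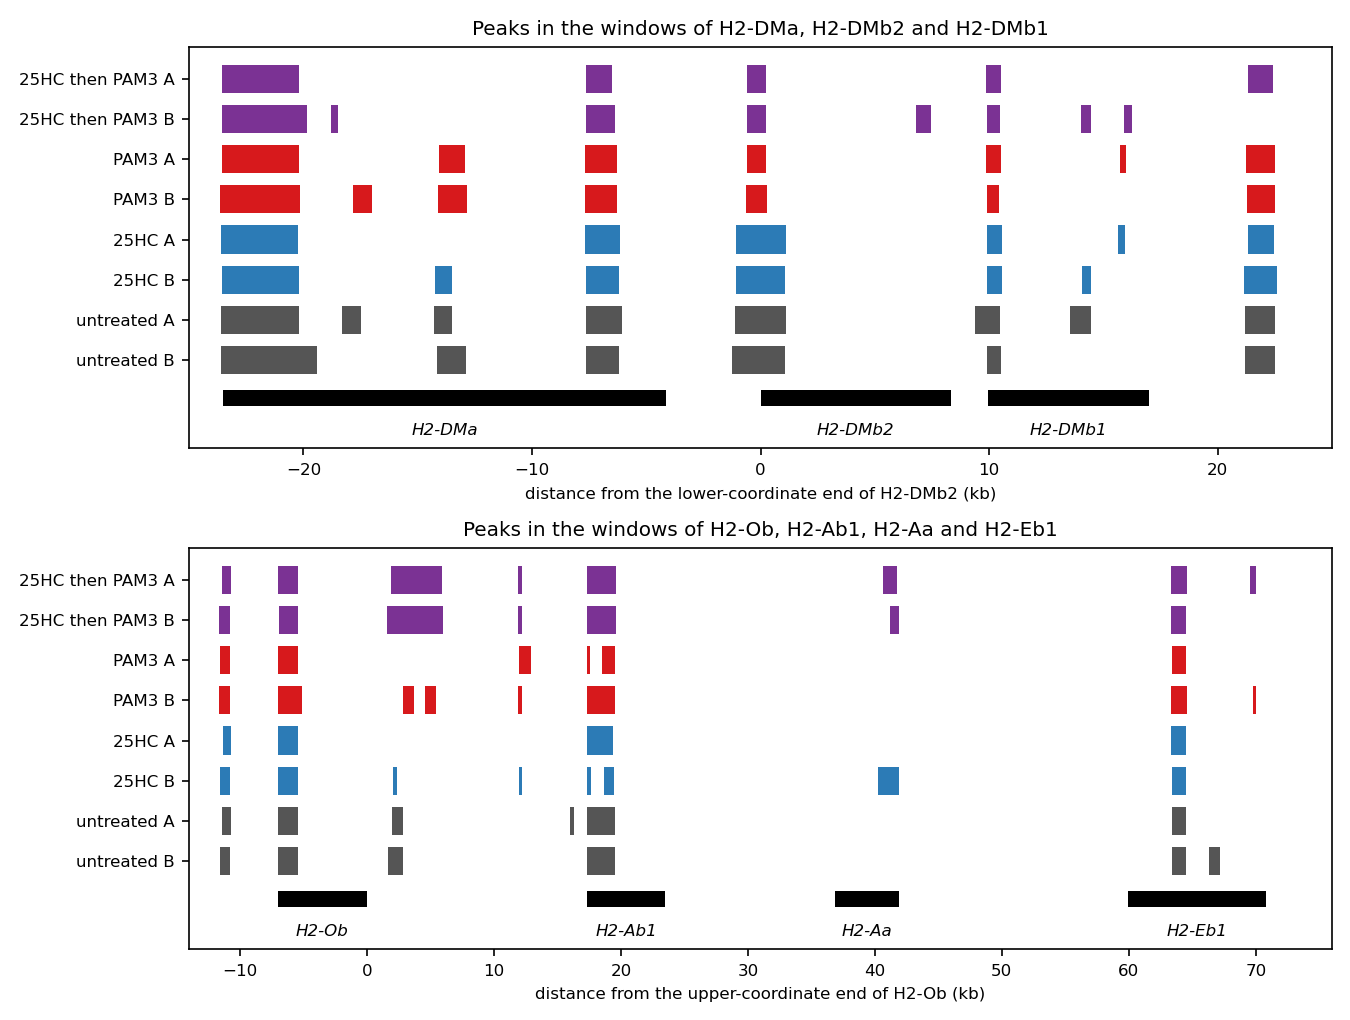
Peaks (coloured blocks) of each library (rows) by distance in kb, with genes as black bars: above, from the lower-coordinate end of H2-DMb2, and below, from the upper-coordinate end of H2-Ob. The block at 0 kb in the upper panel is 841 to 922 bp wide with PAM3 and 2143 to 2320 bp without, and the block from 1.6 to 6.0 kb in the lower panel is broad only in the 25HC then PAM3 libraries.

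The chains of the presenting molecules differed in how much mark they carried. H2-Aa had 1099 and 708 bp in 25HC then PAM3, 0 and 0 bp in PAM3, 0 and 1669 bp in 25HC, and 0 and 0 bp in untreated macrophages. All of it fell in 1 region at the gene's start (chr17:34286160-34287828), called in both 25HC then PAM3 libraries, in 25HC from mouse B and in no other. H2-Aa averaged 434.5 bp over the libraries, under the 500 bp needed for testing, so it has no p, and no fold is given against groups at 0.

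H2-Ab1, its partner chain, kept a peak at its lower-coordinate end in every library. H2-Ab1 had 2267 and 2286 bp in 25HC then PAM3, 1897 and 2196 bp in PAM3, 2061 and 1065 bp in 25HC, and 2511 and 2264 bp in untreated. In 25HC B, the lowest library, and in PAM3 A this peak was called in 2 parts. H2-Eb1 had 1707 and 1121 bp in 25HC then PAM3, 1128 and 1469 bp in PAM3, 1155 and 1152 bp in 25HC, and 1131 and 1960 bp in untreated. Its groups overlapped, and 1 region inside the gene (chr17:34309242-34310454) gave 1118 to 1213 bp in every library while its RefSeq start carried no peak in any. Neither gene passed in any of the 7 contrasts, with limma adjusted p of 0.384 or more.

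Cd74 (chr18:60803849-60812652) had 3273 and 4337 bp in 25HC then PAM3, 3183 and 0 bp in PAM3, 3666 and 4487 bp in 25HC, and 3654 and 4470 bp in untreated. The other 7 libraries had 3183 bp or more, whereas PAM3 B had no Cd74 peak, although its list covers more of the genome than any other. A window at 0 in exactly 1 of the 8 libraries occurred for 8.04% of tested genes. The log2 difference of PAM3 against untreated was −1.70 (SE 0.92, limma adjusted p = 0.399). Without PAM3 A, which leaves PAM3 B alone in its group and assumes that it varies like the others, the adjusted p was 0.00703, so this 1 library decides the value. A small region 0.5 to 1.3 kb before the lower-coordinate end of Cd74 was called only in 25HC then PAM3, at 472 and 817 bp.

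Read over the set, few of the 9 tested genes passed. In PAM3 against untreated 2 fell (Ciita and H2-DMb2) and 0 rose, where 1.97% of the 14586 tested genes fell and 1.89% rose (3.85% in all). The median log2 difference of the 9 was −0.27, and that of all tested genes −0.01. In 25HC then PAM3 against 25HC 1 rose (H2-Ob) and 0 fell, where 2.73% of tested genes rose and 2.3% fell (5.03% in all), with medians of −0.10 in the set and −0.02 over all genes. Over 4 libraries against 4, 3 fell with PAM3 (Ciita, H2-DMa and H2-DMb2) and 0 rose, where 5.88% fell and 5.94% rose. The medians were −0.21 and −0.01. The windows of H2-DMa and H2-DMb2 share the region that was narrower with PAM3, so their calls are not separate results. With mice as blocks the genes that passed in this average were Ciita, H2-DMb2 and H2-Ob. H2-Ob differed by 0.49, towards longer called length with PAM3 (SE 0.13, limma adjusted p = 0.0644, or 0.0483 with mice as blocks), whereas H2-DMa no longer passed.

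The effect of 25HC by itself gave no call in the set. None of the 9 passed limma's test in 25HC against untreated (0.0343% of all tested genes did), in 25HC then PAM3 against PAM3 (1.3%), in the difference between the PAM3 responses (0%) or in the 25HC average over 4 libraries against 4 (0.0686%). Over all genes, 678 and 2171 had an unadjusted p under 0.05 in the first and second of these contrasts, and 1436 and 1660 in the others. The smallest unadjusted p in the set was 0.0572 for H2-DMa in 25HC against untreated and 0.00368 for Ciita in 25HC then PAM3 against PAM3.

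**Figure D4:**
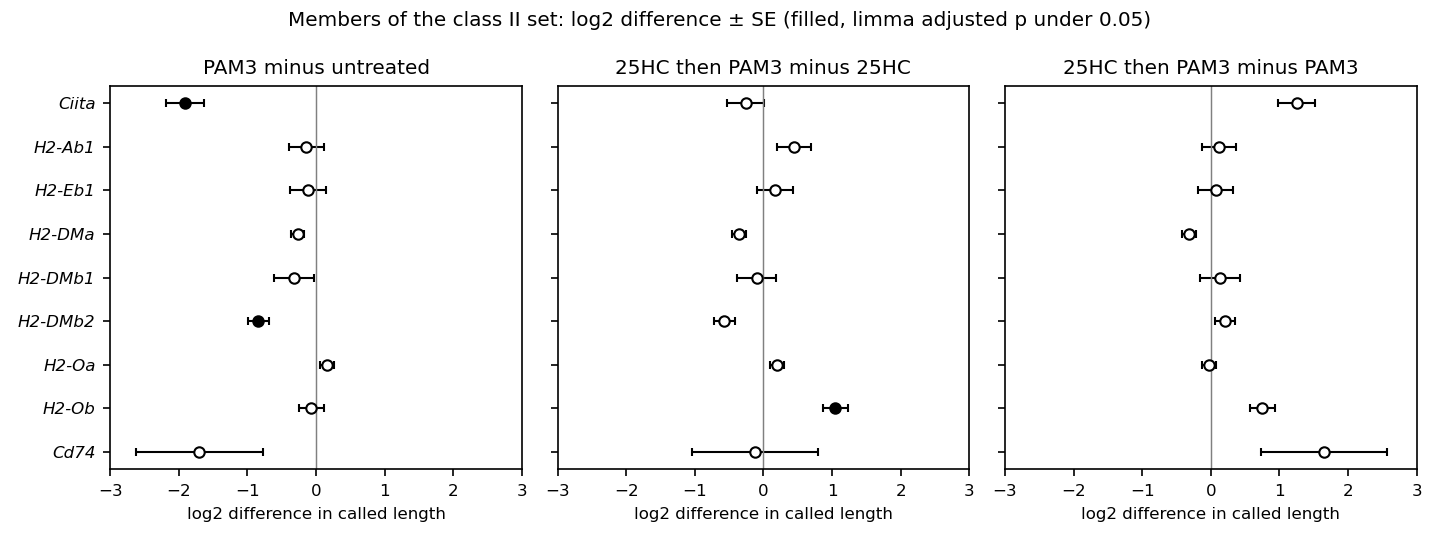
Log2 difference in called length (horizontal axis, with SE as bars) of the 9 tested genes (rows) in 3 comparisons; filled points have a limma adjusted p under 0.05. Ciita (−1.91) and H2-DMb2 (−0.84) are filled in PAM3 minus untreated, H2-Ob (1.05) in 25HC then PAM3 minus 25HC, and none in 25HC then PAM3 minus PAM3.

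The same windows were also read in 1 kb bins, called where peaks cover at least 50% of the bin and counted as gained or lost only when both libraries of a group differ from both of the other. Of 52 bins called in the set's windows, PAM3 against untreated lost 9 and gained 0, where 6.89% and 5.14% of the 117757 called bins of the genome did. The lost bins were 5 in Ciita, 1 shared by H2-DMb2 and H2-DMa, 1 past H2-Ob and 2 in Cd74. In 25HC then PAM3 against 25HC 6 were gained and 5 lost (8.8% and 6.35% of the genome's bins). Gained bins were 2 in Ciita, 3 past H2-Ob and 1 in H2-Ab1. The lost bins lay in the windows of Ciita and Cd74 and in the region shared by H2-DMa and H2-DMb2.

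Against PAM3 alone, 25HC then PAM3 gained 7 bins and lost 3 (5.32% and 3.87%). The gained bins lay in the windows of Ciita (3), H2-Ob, H2-Ab1, H2-Aa and Cd74 (1 each). The lost bins lay in the windows of Ciita, H2-DMa and H2-DMb1. In 25HC against untreated 0 were gained and 2 lost (1.28% and 2.7%). Over 4 libraries against 4, 1 bin was lost with PAM3 and 0 gained (2.09% and 1.79%), and that bin was the one beside the H2-DMb2 end (chr17:34142001-34143000). These counts are descriptions with no test, and adjacent bins often belong to 1 peak.

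Of 7 tested genes for the factors that bring CIITA to class II promoters (Rfx5, Rfxap, Rfxank, Nfya, Nfyb, Nfyc and Creb1), 1 rose with PAM3 over 4 libraries against 4 and 0 fell, where 5.94% of tested genes rose and 5.88% fell (11.8% in all), and the list's median was 0.06. Rfx5, the DNA-binding subunit of RFX, had 1897 and 2630 bp in 25HC then PAM3, 3395 and 3334 bp in PAM3, 1449 and 1970 bp in 25HC, and 1943 and 1900 bp in untreated. It rose by 0.51 (SE 0.12, limma adjusted p = 0.0465), but not with mice as blocks (0.0761) or without any 1 library (0.0515 to 0.119). Nfya, which contacts the Y box, differed by 0.38 (SE 0.15, adjusted p = 0.182).

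Of 11 tested upstream regulators of Ciita, 1 rose with PAM3 over 4 libraries against 4 and 0 fell, with a median of −0.03. That is 1 of 11, beside 5.94% of all tested genes rising. Jak2, a kinase of the interferon gamma receptor, rose by 1.03 (SE 0.17, limma adjusted p = 0.0206), with 4135 and 4890 bp in 25HC then PAM3, 3446 and 7052 bp in PAM3, 1811 and 2369 bp in 25HC, and 2106 and 2083 bp in untreated. The libraries with PAM3 were all higher than those without, as for 7.12% of tested genes, though the call was lost without any one of the 4 libraries without PAM3 or without 25HC then PAM3 B. Irf8, a factor that marks the monocyte and dendritic lineage, differed by −0.44 (SE 0.12, adjusted p = 0.0692). It had 4590 and 6618 bp in 25HC then PAM3, 4947 and 7019 bp in PAM3, 6887 and 7437 bp in 25HC, and 9433 and 8501 bp in untreated. Both untreated libraries lay above the 6 others, both 25HC then PAM3 libraries lay below both 25HC libraries, and PAM3 overlapped 25HC.

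Of 7 tested genes for processing and turnover of class II molecules, 1 rose with PAM3 over 4 libraries against 4 and 0 fell (median 0.05), again beside 5.94% of all tested genes rising. Marchf1, a ubiquitin ligase that removes class II molecules from the cell surface, had 25146 and 27047 bp in 25HC then PAM3, 16504 and 24731 bp in PAM3, 10616 and 14816 bp in 25HC, and 12634 and 12683 bp in untreated. The 4 libraries with PAM3 were higher than the 4 without, as for 7.12% of tested genes. Marchf1 rose by 0.85 (SE 0.12, limma adjusted p = 0.0144, or 0.0222 with mice as blocks), kept the call without each library, and also rose in 25HC then PAM3 against 25HC by 1.0 (SE 0.18, adjusted p = 0.0395, or 0.0518 with mice as blocks). This second call was kept without PAM3 A or PAM3 B and lost without any one of the other 6 libraries (0.0741 to 0.125). Ctss, the protease that trims the invariant chain, differed by 0.71 (SE 0.20, adjusted p = 0.0782), and Lgmn, a lysosomal protease, by −0.38 (SE 0.13, adjusted p = 0.117).

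H2-Eb2, a class II beta gene next to H2-Eb1, had 4975 and 4617 bp in 25HC then PAM3, 1956 and 2721 bp in PAM3, 669 and 2049 bp in 25HC, and 1912 and 2431 bp in untreated. The 25HC then PAM3 libraries were the highest, as for H2-Ob, but the differences of 1.59 against 25HC (SE 0.35, limma adjusted p = 0.063) and 0.90 against PAM3 (SE 0.35, adjusted p = 0.309) did not pass. In the class I pathway, which loads peptides from the cytosol, 0 of 11 tested genes passed in any of the 7 contrasts. The largest share of all tested genes to pass was 11.8%, with PAM3 over 4 libraries against 4, so 0 of 11 does not set this list apart. The list's median in that contrast was 0.06, and its smallest limma adjusted p there was 0.128, for Erap1, a peptide trimming enzyme (0.23, SE 0.08).

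Genes that share a region with the set did not pass. The windows of Dexi, next to Ciita, and Tcof1, next to Cd74, share a region with a member, and they differed with PAM3 over 4 libraries against 4 by −0.34 (SE 0.23, limma adjusted p = 0.405) and −0.28 (SE 0.10, adjusted p = 0.137). Tested genes were also ranked by likeness to Ciita and H2-Aa. Genes overlapping the set, predicted genes (Gm and Rik names) and olfactory and vomeronasal receptor genes were left out. Among the 13991 that remained, those whose values over the 8 libraries were most like those of Ciita were Efna1, Twistnb, Grin2c, Coch and Rhbdl3. Their Pearson r was 0.985, 0.982, 0.981, 0.976 and 0.968. For H2-Aa they were Prss27, Arhgef15, Ap3d1, Slc26a4 and H3c15, with r of 0.947, 0.932, 0.93, 0.925 and 0.923. These are the top of a long ranking over 8 points and carry no test.

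Class II genes are strongly expressed in dendritic and B cells, so their markers were read beside the set. Summed called length of 8 conventional dendritic cell markers was 22498 to 28355 bp in 25HC then PAM3, 22754 to 28236 bp in PAM3, 24541 to 29125 bp in 25HC and 28457 to 29613 bp in untreated, with Cd209a at 0 in every library. For 8 B cell markers the sums were 6396 to 8351 bp, 9723 to 10745 bp, 10270 to 13284 bp and 8526 to 13076 bp in the same order, with Pax5 at 0. For 5 T cell markers they were 5891 to 6206 bp, 6465 to 9833 bp, 7906 to 8331 bp and 9039 to 9152 bp. Plasmacytoid markers summed to 31197 bp or more and neutrophil markers to 4036 bp or less in every library. Most of the plasmacytoid sum was Tcf4, a long gene with 29009 bp or more in every library, so the sums do not compare cell types. Klk1 of the plasmacytoid, Cd3e of the T cell, and S100a9, Ly6g and Retnlg of the neutrophil markers were also at 0 in all 8.

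Some of these markers changed with PAM3 over 4 libraries against 4. Clec9a fell and Xcr1 rose of 7 tested conventional dendritic markers, Siglech fell of 3 plasmacytoid, Cd2 of 4 T cell and Elane of 2 neutrophil markers, 0 of 5 B cell markers passed, and Adgre1, Itgam and Cd14 rose of 9 macrophage markers, where 5.94% of all tested genes rose and 5.88% fell (11.8% in all). In PAM3 against untreated, the contrast that called Ciita and H2-DMb2, Clec9a, Siglech, Cd2 and Elane fell and Adgre1 rose, where 1.97% of all tested genes fell and 1.89% rose. Siglech, a receptor of plasmacytoid dendritic cells, had 1854 and 1804 bp in 25HC then PAM3, 325 and 329 bp in PAM3, 3559 and 4120 bp in 25HC, and 4180 and 5193 bp in untreated. Like Ciita, it was lowest in both PAM3 libraries. It fell by 2.6 on the log2 scale in PAM3 against untreated (SE 0.15, limma adjusted p = 0.00996, or 0.0414 with mice as blocks), and in 25HC then PAM3 against PAM3 it rose by 1.48 (SE 0.15, adjusted p = 0.0236, or 0.0752 with mice as blocks), a call kept in 2 of 8 fits that each left out 1 library (0.0246 to 0.0704). With 1 kb flanks that second difference was −0.0. Tcf4 and Ccr9, the other tested plasmacytoid markers, did not pass in PAM3 against untreated. Their means were 34255 bp for Tcf4 and 2119 bp for Ccr9 in PAM3, and 34591 and 2250.5 bp in untreated. The part of other cell types in the changes at Ciita and H2-DMb2 was not tested.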

How the data were processed

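The data were 8 acetyl-H4 ChIP-seq libraries, 2 in each of 4 groups. GSNAP, MACS2 2.1.0 and GRCm38 (mm10) are named in the submitters' processing notes. Which control, filters and cut-offs were applied is not given in the sources used here. Each broadPeak list, as deposited, holds the authors' start and end of each peak, a score, a fold enrichment ratio, and −log10 p and −log10 q; each is the authors' own per-peak value. The score was not used.

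Called length was summed per gene (RefSeq body on GRCm38.p6 with 5 kb on either side). Log2(bp + 500) values, with each library's median subtracted, were tested with limma 3.58.1 (R 4.3.3; trend, robust; 1 model of 4 groups) over the 14586 of 21883 protein-coding genes averaging at least 500 bp, with Benjamini-Hochberg adjusted p under 0.05 over all of them. This scale understates changes of short called lengths. Rose and fell are used only of genes that passed. The model had 4 residual degrees of freedom. It was tested on simulated, normally distributed values with known changes, and the outcome of that test is not given here. Each p-value rests on the spread between 2 mice per group.

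The labels name a mouse, A or B, for each library, and libraries with the same letter were taken to come from the same animal. Deviations from the group means correlated at −0.0171 to 0.0304 between groups, and the mouse was fitted as a block as an alternative. Other alternatives changed the window, the peak threshold, the pseudocount, the minimum, the scaling and the libraries used. The 10 genes and the lists were chosen with earlier results of these data known. 1 gene of a list is not reported here. Genes named besides them share a region with a member, passed a test within a list, ranked among the 4 smallest p of a list (not all of these are printed), or had the 5 values most like Ciita or H2-Aa. Motifs were searched with Python 3.11.15, and promoters aligned with Biopython 1.88.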

Additional observations from a re-analysis of the deposited data

Results flagged for a closer look

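In groups of 4 libraries, 3 values stood apart by Dixon's criterion, which picks out about 1 in 20 groups by chance. Among the libraries without PAM3, H2-Aa in 25HC B had 1669 bp where the other 3 had 0. In the same libraries H2-Eb1 in untreated B had 1960 bp, against 1131 to 1155 bp in the others, because of a second peak that no other library had. Among the libraries with PAM3, H2-DMb2 in 25HC then PAM3 B had 2088 bp, against 1441 to 1524 bp.

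For 2 genes the means over both mice moved in opposite directions in every pair of libraries. H2-Ab1 differed with PAM3 by 0.45 after 25HC and by −0.14 without 25HC, and with 25HC by 0.12 in PAM3 and by −0.46 in unstimulated cells. H2-Ob differed with 25HC by 0.75 in PAM3 and by −0.37 in unstimulated cells. The limma test of this difference did not pass for either gene (adjusted p = 0.677 for H2-Ab1 and 0.252 for H2-Ob).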

How the results depend on the processing

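The number of genes in the set that passed depended on the settings. In PAM3 against untreated it was 2 as reported, 1 with 10 kb flanks, unshared bases only, the same number of peaks or weighting by enrichment (Ciita each time), and 0 with the mouse as a replicate block, 1 kb flanks, peaks of −log10 q of at least 5, or the same covered length. In 25HC then PAM3 against 25HC, 1 gene passed as reported and 0 with 1 kb flanks, the stricter q, no median subtraction, the same number of peaks, the same covered length or weighting. For PAM3 over 4 libraries against 4, 3 passed as reported, 1 with 1 kb flanks, unshared bases or weighting, and 0 with the stricter q or the same covered length. The stricter q called 0 genes of the whole table in these 3 contrasts. For the other settings the number of all tested genes that passed is not given here. A loss of calls in the set is therefore not told apart from a loss over the whole table. Leaving out 1 library at a time gave 0 to 3, 0 to 1 and 1 to 4 genes in these contrasts, and 0 to 1 in 25HC then PAM3 against PAM3, in the difference between the PAM3 responses and in the 25HC average, where the 1 was Cd74 without PAM3 A.

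Of the values of single genes under the alternatives, 560 of 715 kept their direction and their side of the threshold, 124 lost and 17 gained a call, and 14 changed sign. With the stricter q, Ciita in 25HC then PAM3 against 25HC became 1.39, H2-DMb2 became 0.16 in PAM3 against untreated, 0.80 in 25HC then PAM3 against 25HC and 0.48 over 4 against 4, Rfx5 became −0.50 and Tcof1 0.07. With 1 kb flanks Ciita in 25HC then PAM3 against 25HC became 0.04, and H2-Ob became −0.04 against 25HC, −0.14 against PAM3 and −0.18 for the difference between the PAM3 responses, since those windows leave out the region past the gene. Ciita in 25HC then PAM3 against 25HC ranged over −0.59 to 0.07 when 1 library was left out, and was 0.07 without 25HC B. H2-DMa in PAM3 against untreated was 0.05 with unshared bases, and Rfx5 −0.22 with the same covered length. Siglech in 25HC then PAM3 against PAM3 was −0.0 with 1 kb flanks. The cause of the other sign changes was not tested.

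Of the 1 kb bins called in the set's windows, PAM3 against untreated lost 14 of 87 where 1 bp sufficed (6.24% of the genome's bins). It lost 5 of 26 where 90% was asked (7.79%), beside 9 of 52 as reported (6.89%). Where 1 bp sufficed, 1 of 87 was gained (5.23%). In 25HC then PAM3 against 25HC 1 of 52 was lost with the stricter q (6.93% of the genome's bins). In 25HC against untreated 1 of 26 was lost at 90% (3.10%) and 6 of 52 with the stricter q (4.63%). In 25HC then PAM3 against PAM3 1 of 26 was lost at 90% (3.83%) and 0 of 52 with the stricter q (4.32%). Over 4 libraries against 4, 4 of 87 were lost at 1 bp (1.83%) and 0 of 52 with the stricter q (1.21%). Read depth is unknown, so weak peaks near the calling threshold limit every count.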

Other observations

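Clec16a, the gene on the far side of Dexi from Ciita, was looked at after its values had been seen. It had 28951 and 26517 bp of called length in 25HC then PAM3, 18463 and 24833 bp in PAM3, 9935 and 10379 bp in 25HC, and 10684 and 10491 bp in untreated macrophages. All 4 libraries with PAM3 were above all 4 without, as for 7.12% of tested genes, while Ciita was lowest in PAM3. Clec16a rose by 1.03 in PAM3 against untreated (SE 0.11, limma adjusted p = 0.0176, or 0.049 with mice as blocks) and by 1.38 in 25HC then PAM3 against 25HC (SE 0.11, adjusted p = 0.00929, or 0.0341 with mice as blocks).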
